A study of Mus musculus with 10 samples.

Results

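The genes described are 8 members of the transforming growth factor beta (TGF-beta) pathway: the ligands Tgfb1 and Tgfb2, the receptors Tgfbr1 and Tgfbr2, the signal carrier Smad3, the feedback inhibitors Smad7 and Skil, and the matrix gene Tgfbi. They were taken by gene symbol from a table of 12535 genes, and all 8 were present and passed the filter on low values. Smad7 passed it only through its values in tumour macrophages. TGF-beta is secreted as a latent complex and must be released by integrins or proteases before it binds. The active ligand brings the type II receptor TGFBR2 together with the type I receptor TGFBR1, which phosphorylates SMAD2 and SMAD3. These enter the nucleus with SMAD4 and change transcription, and SMAD7 and SKIL hold the signal back. Macrophages both make TGF-beta1 and respond to it, and in tumours the ligand is known for restraining immune cells and for driving fibroblasts to lay down matrix.

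RNA-seq had been done on mouse cells sorted for surface markers of leukocytes (CD45), myeloid cells (CD11b) and macrophages (the product of Adgre1). Tumour-associated macrophages (TAM) came from pancreatic tumours grown in the pancreas for 14 days from MT4, a single KPC organoid line of mouse pancreatic adenocarcinoma. The tumour-bearing hosts were C57/BL6 Ahr fl/fl Lys M mice (cKO-labelled TAM, 3 libraries), whose Cre, expressed from Lyz2, should remove the floxed Ahr gene (the aryl hydrocarbon receptor), and C57/BL6 Ahr fl/fl mice without it (control TAM, 3 libraries). Resident macrophages came from the healthy pancreas of C57/BL6 WT mice (4 libraries). Lyz2 is also active in neutrophils and other myeloid cells, so the deletion is not limited to macrophages. TAM and resident libraries differ at least in tumour and in floxed alleles at once, so effects of these cannot be told apart.

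The libraries held 10311267 (control TAM replicate 2) to 26450488 (cKO-labelled TAM replicate 3) reads recovered from the table. All 9 macrophage markers, Adgre1 and Csf1r among them, were detected in every group. They were not level: 7 of the 9 were called lower and 0 higher in cKO-labelled than in control TAM (median -0.28), where 19.1% of all genes were called lower. Their summed FPKM, most of it Lyz2, was 13641 to 14049 in cKO-labelled TAM, 22437 to 22587 in control TAM and 30987 to 31892 in resident libraries. Ahr averaged 10.4 ± 0.785 FPKM in cKO-labelled TAM, 7.18 ± 0.309 in control TAM and 4.19 ± 0.261 in resident macrophages. This is no check of the deletion, since reads of exons that Cre leaves in place enter the FPKM of the gene. The Y-linked gene Ddx3y was at 0.707 ± 0.148, 0.656 ± 0.122 and 0.0265 ± 0.0258 FPKM in the same order of groups. TAM and resident libraries thus differ in Y-linked RNA too. Its source was not tested, and its effects cannot be told apart from those of tumour and floxed alleles. Summed FPKM of 17 pancreatic acinar enzyme genes was 397 to 412 in cKO-labelled TAM, 104 to 112 in control TAM and 32107 to 34189 in resident libraries, with Amy2a5 at 0 in control TAM. The series text counts mice, but no label ties a library to an animal, so the p-values measure the spread between these libraries, which may be partly technical.

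Levels are FPKM (fragments per kilobase of a gene, relative to the size of the library), which can be compared between genes because they are per length. Differences are of mean log2(FPKM + 1), a scale that understates changes of low genes, with the standard error (SE) and the limma p adjusted over 11127 genes. A gene was called where that p was under 0.05. In bulk RNA, fewer cells of a type and less RNA per cell cannot be told apart.

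**Figure D1:**
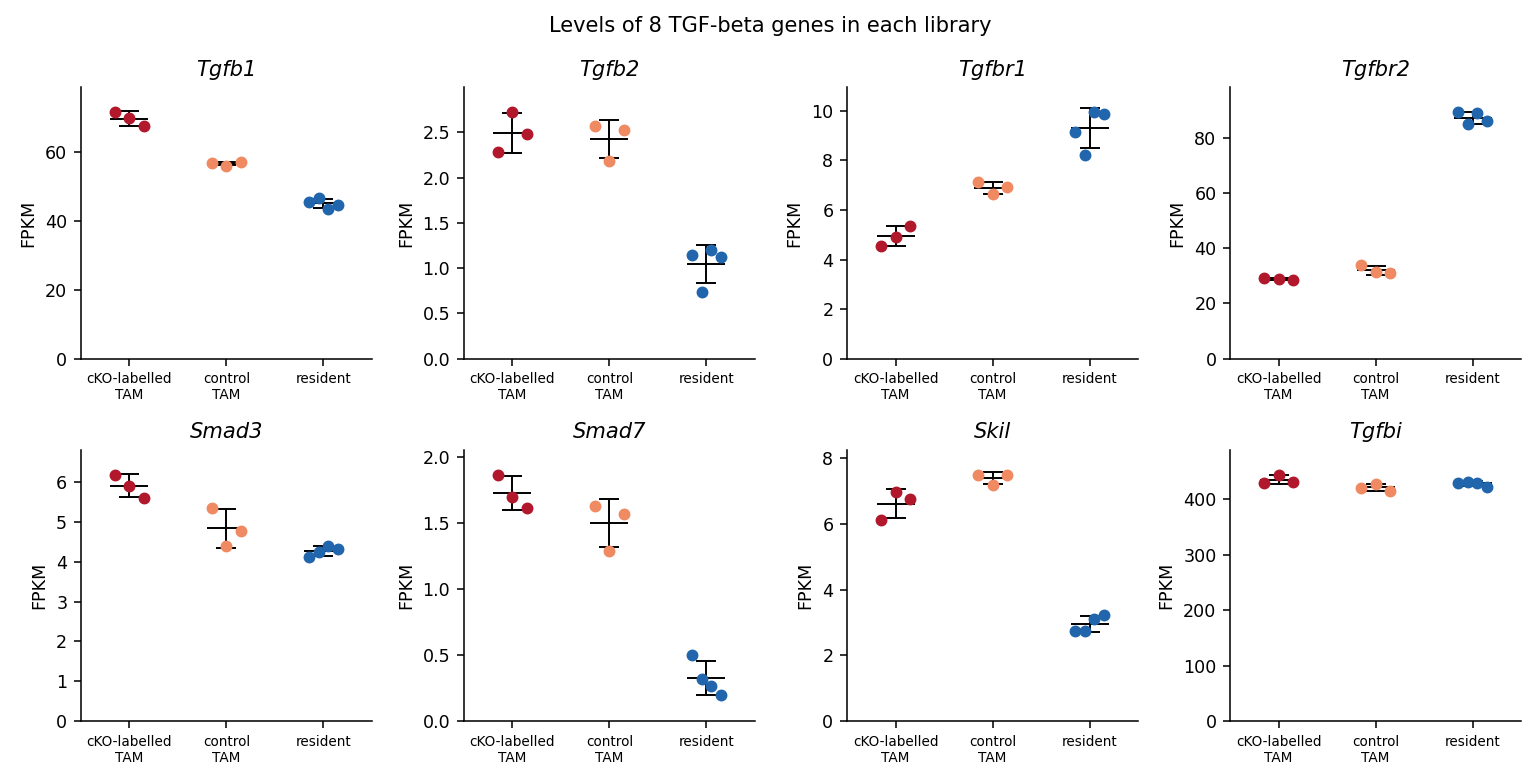
FPKM of each of the 8 genes (vertical axes, each from 0) in 3 cKO-labelled TAM, 3 control TAM and 4 resident libraries, 1 point per library, with the group mean and SD as bars. Tgfbr2 is far higher in resident macrophages, Smad7 and Skil are far lower there, and Tgfbi lies between 416 and 445 FPKM in all 10 libraries.

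Tumour macrophages carried more Tgfb1 and Tgfb2 RNA and less Tgfbr1 and Tgfbr2 RNA than resident macrophages. In the cKO-labelled tumours Tgfb1 and Tgfbr1 stood further in the same direction. Tgfbr2 did so by a small step, whose call was lost without cKO-labelled TAM replicate 3 or control TAM replicate 1. Tgfb1, the main TGF-beta of leukocytes, was about 1.23 times as high in cKO-labelled as in control TAM, and Tgfbr1, the kinase that starts SMAD signalling, was lower in them by 0.41 on the log2 scale. Tgfbr2, the ligand-binding receptor, averaged 28.9 ± 0.459 FPKM in cKO-labelled TAM, 32.1 ± 1.68 in control TAM and 87.3 ± 2.19 in resident macrophages (SD, n = 3, 3 and 4). Tgfbi, a secreted matrix protein named for its induction by TGF-beta, was called in none of the 3 comparisons.

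Of the 8 genes, 2 were called higher and 2 lower in cKO-labelled than in control TAM, where 39.6% of all genes tested were called (20.5% higher and 19.1% lower). Between control TAM and resident macrophages 4 were called higher and 2 lower, with 77.1% of all genes called (39.0% higher and 38.1% lower). Between cKO-labelled TAM and resident macrophages 5 were called higher and 2 lower, with 77.4% called (40.2% higher and 37.2% lower). These shares lie near the background, so the number of calls says nothing particular about TGF-beta genes, and the results below are the sizes and directions. The libraries of both groups did not overlap for 6 genes between cKO-labelled and control TAM (51.4% of all genes), for 6 between control TAM and resident macrophages (73.9%) and for 7 between cKO-labelled TAM and resident macrophages (75.5%). The comparisons share the control or the resident libraries, so they are not independent of each other. The counts of every gene and marker list in this text are to be read against these same shares of all genes. Several lists hold genes that passed the filter on low values only through the group where they are high. For such genes a call as higher in that group was close to fixed in advance.

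**Figure D2:**
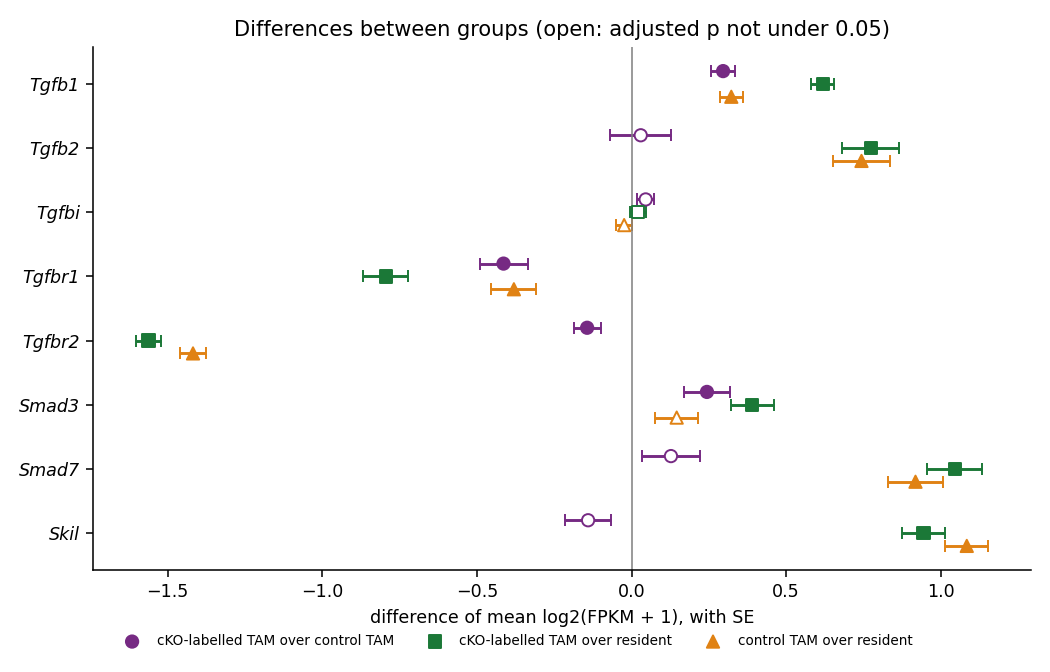
Difference of mean log2(FPKM + 1) with its SE (horizontal axis) for each of the 8 genes, for cKO-labelled over control TAM (circles), cKO-labelled TAM over resident (squares) and control TAM over resident (triangles), filled where the adjusted p is under 0.05. Tgfb1 lies right of 0 and Tgfbr1 and Tgfbr2 left of 0 in all 3 comparisons, and the largest difference is that of Tgfbr2 at -1.56.

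Tgfb1 (ENSMUSG00000002603, GRCm38 chr7:25687002-25705077, plus strand, protein-coding) was measured at 71.7, 70.1 and 67.6 FPKM in cKO-labelled TAM, 56.8, 56.1 and 57.0 in control TAM, and 45.5, 46.8, 43.4 and 44.8 in resident macrophages. The groups stood in that order with no overlap between any of them. The difference was 0.30 ± 0.04 (SE) between cKO-labelled and control TAM (adjusted p = 3.12e-05) and 0.32 ± 0.04 between control TAM and resident macrophages (adjusted p = 8.29e-07). Between cKO-labelled TAM and resident macrophages it was 0.62 ± 0.04 (adjusted p = 2.87e-10). Markers of several other cell types moved with Tgfb1 between the TAM groups, and their part in it was not tested. The 11 of 12 neutrophil markers in the table, none at 0 throughout a group, summed to 1685 to 1854 FPKM in cKO-labelled TAM. Their sum was 1323 to 1350 in control TAM and 360 to 370 in resident libraries, the order of Tgfb1. In TAM most of it was Retnlg. In resident libraries it was mostly Mmp9, at 329 FPKM, while S100a8 and S100a9 were at 0.675 and 0.0320 FPKM there. The 10 of 12 T and NK cell markers in the table, none at 0 throughout a group, stood in the order of Tgfb1 too. Their sums were 22.4 to 24.0, 16.4 to 19.8 and 9.40 to 10.1 FPKM. Eosinophil markers, 6 of 8 in the table, summed to 1498 to 1521, 1457 to 1495 and 185 to 194 FPKM, most of it Alox15. Alox15 is also on the list of large peritoneal macrophages, so that sum is not specific to eosinophils. Prg2 of that list was at 0 in resident libraries. Endothelial markers, 5 of 8, summed to 27.5 to 29.2, 7.56 to 8.73 and 3.48 to 3.86 FPKM, also in the order of Tgfb1. Between cKO-labelled and control TAM, 8 of 11 tested neutrophil, 5 of 9 T and NK cell and 4 of 6 eosinophil markers were called higher. So were 3 of 4 B and plasma cell and 3 of 3 endothelial markers, against 20.5% of all genes. Of the genes called higher, the endothelial Kdr and Plvap and the T cell genes Cd8a and Cd3d passed the filter only through cKO-labelled TAM. Their calls were thus close to fixed in advance and add nothing to these counts. The B and plasma cell sum was 238 to 242 FPKM in cKO-labelled TAM, 85.5 to 94.5 in control TAM and 888 to 906 in resident libraries. Unlike Tgfb1, it was highest in resident libraries. Platelets store TGF-beta1, and 4 of 10 platelet markers were in the table, at a summed 4.58 to 5.42 FPKM in cKO-labelled TAM, 1.63 to 3.25 in control TAM and 5.99 to 6.78 in resident libraries. Between the TAM groups that sum ran with Tgfb1, and in resident libraries it did not.

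Tgfb2 (ENSMUSG00000039239, chr1:186622792-186705989, minus strand), a ligand that needs the co-receptor betaglycan to bind TGFBR2 well, was a low-level transcript. It was at 2.28, 2.73 and 2.48 FPKM in cKO-labelled TAM, 2.57, 2.18 and 2.53 in control TAM, and 1.15, 0.740, 1.20 and 1.12 in resident macrophages. The 2 TAM groups overlapped and both lay above every resident library. Between cKO-labelled and control TAM the difference was 0.03 ± 0.10 and was not called (adjusted p = 0.833). Between control TAM and resident macrophages it was 0.74 ± 0.09 (adjusted p = 1.86e-06), a ratio of means of 2.31. Its counts were 41 to 325 reads per library, and 2 genes on the opposite strand overlap it, whose reads this unstranded method cannot set apart. The third ligand, Tgfb3, was at 1.32 ± 0.175 FPKM in cKO-labelled TAM, 2.42 ± 0.401 in control TAM and 0.726 ± 0.0396 in resident macrophages. It was called lower in cKO-labelled than in control TAM (-0.55, adjusted p = 0.000255), the opposite direction to Tgfb1, and higher in control TAM against resident macrophages (0.98).

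The ligands leave the cell bound to latency proteins. Of 6 tested ligand and latency genes, 2 rose and 1 fell in cKO-labelled against control TAM, with a median difference of 0.03 beside 0.01 over all genes tested. Against resident macrophages, 5 rose and 1 fell in control TAM, with a median of 0.86 beside 0.00, where 39.0% of all genes were called higher. Ltbp1, which tethers latent TGF-beta to the matrix, averaged 22.0 ± 0.327 FPKM in cKO-labelled TAM, 21.7 ± 0.376 in control TAM and 1.76 ± 0.186 in resident macrophages. The member that fell in control TAM was Nrros, which holds latent TGF-beta1 on the surface of macrophages and microglia. It was at 232 ± 10.6 FPKM in cKO-labelled TAM, 215 ± 4.61 in control TAM and 340 ± 9.09 in resident macrophages, and was called higher in cKO-labelled than in control TAM (0.11, adjusted p = 0.0242).

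Genes that release the ligand were mostly higher in tumours. Of 11 tested activation genes, 10 rose and 1 fell in control TAM against resident macrophages (median 0.76), where 39.0% of all genes were called higher. In cKO-labelled against control TAM 4 rose and 2 fell (median -0.01, beside 0.01 over all genes), where 20.5% of all genes were called higher. Thbs1, or thrombospondin-1, which can unfold the latent complex, averaged 295 ± 6.17 FPKM in cKO-labelled TAM, 226 ± 4.18 in control TAM and 25.0 ± 0.873 in resident macrophages. Mmp14, a membrane protease, was at 60.7 ± 1.52, 65.1 ± 2.32 and 4.59 ± 0.654 FPKM in these groups, and its difference between the TAM groups was not called. Itgb5 and Itgb1, integrin chains that pair with the alpha-v chain, both fell in cKO-labelled against control TAM, by 0.55 and 0.41. Mmp9, a gelatinase that can cleave the complex, was the member that fell in control TAM. It was at 123 ± 4.28 FPKM in cKO-labelled TAM, 41.5 ± 0.324 in control TAM and 329 ± 3.73 in resident macrophages. Mmp9 is also one of the neutrophil markers summed above, and makes up most of their sum in resident libraries. Of 11 tested neutrophil markers, 9 were called higher and 1, Mmp9 itself, lower in control TAM against resident macrophages. Of all genes, 39.0% were called higher and 38.1% lower there. The part of neutrophils in the values of Mmp9 was not tested.

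Tgfbr1 (ENSMUSG00000007613, chr4:47353222-47414931, plus strand) was at 4.56, 4.91 and 5.35 FPKM in cKO-labelled TAM, 7.13, 6.64 and 6.94 in control TAM, and 9.17, 8.23, 9.96 and 9.88 in resident macrophages. Every cKO-labelled library lay below every control TAM library, and these below every resident one. The difference was -0.41 ± 0.08 between cKO-labelled and control TAM (adjusted p = 0.000623), -0.38 ± 0.07 between control TAM and resident macrophages (adjusted p = 0.000186) and -0.79 ± 0.07 between cKO-labelled TAM and resident macrophages (adjusted p = 5.73e-08). The order is the reverse of that of Tgfb1 and the same as that of the summed macrophage markers, whose part in the receptor values was not tested. Most of that sum was Lyz2, the gene from which Cre is expressed in the cKO-labelled hosts. Lyz2 differed by -0.80 between the TAM groups, against a median of -0.28 for the 9 markers. The sum is therefore no measure of macrophage number between the TAM groups.

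Tgfbr2 (ENSMUSG00000032440, chr9:116084293-116175360, minus strand) was at 29.4, 28.8 and 28.5 FPKM in cKO-labelled TAM, 34.0, 31.3 and 31.0 in control TAM, and 89.4, 84.9, 88.9 and 86.0 in resident macrophages. The resident libraries stood far above both TAM groups, and the TAM groups were close without overlapping. Control TAM differed from resident macrophages by -1.42 ± 0.04 (adjusted p = 1.90e-14), the largest change of the 8 genes in that comparison. The difference between cKO-labelled and control TAM was small, at -0.14 ± 0.04 (adjusted p = 0.0162). It was no longer called without cKO-labelled TAM replicate 3 (adjusted p = 0.0546) or without control TAM replicate 1 (adjusted p = 0.0882). 

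Of 5 tested receptors and co-receptors, 1 rose and 4 fell in control TAM against resident macrophages (median -0.38 beside 0.00 over all genes), and 1 rose and 2 fell in cKO-labelled against control TAM (median 0.07 beside 0.01). The 2 that fell there were Tgfbr1 and Tgfbr2, and without control TAM replicate 1 only 1 of the 3 calls was left. Acvrl1, a type I receptor for BMP9 that TGF-beta can also engage, averaged 24.1 ± 0.882 FPKM in cKO-labelled TAM, 21.0 ± 1.05 in control TAM and 29.0 ± 2.55 in resident macrophages. It was the gene called higher in cKO-labelled than in control TAM (0.19). The gene that rose in control TAM was Bambi, a decoy receptor without a kinase, at 4.94 ± 0.328, 4.17 ± 0.0275 and 2.11 ± 0.189 FPKM in the same order of groups. Tgfbr3, the betaglycan gene, did not pass the filter on low values. It was at 1.04 ± 0.110 FPKM in cKO-labelled TAM, 0.647 ± 0.113 in control TAM and 0.550 ± 0.0307 in resident macrophages.

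Promoters are shown for the 4 genes that were called between cKO-labelled and control TAM, because Ahr, the gene targeted in the cKO-labelled hosts, encodes a DNA-binding receptor. The 250 bases before the annotated start (RefSeq, GRCm38.p6, written 5′ to 3′ on the gene's strand) are given for chr7:25686752-25687001 (Tgfb1, plus strand), chr4:47352972-47353221 (Tgfbr1, plus), chr9:116175364-116175613 (Tgfbr2, minus) and chr9:63757995-63758244 (Smad3, minus). Capitals mark GCGTG, the core bound by the aryl hydrocarbon receptor, and CAGAC, a SMAD element, read on either strand (CACGC and GTCTG).
Tgfb1: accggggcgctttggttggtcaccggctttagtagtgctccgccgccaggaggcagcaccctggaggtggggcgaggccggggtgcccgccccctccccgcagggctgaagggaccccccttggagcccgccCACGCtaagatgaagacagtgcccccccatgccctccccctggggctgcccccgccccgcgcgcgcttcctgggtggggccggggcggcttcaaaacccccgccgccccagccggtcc
Tgfbr1: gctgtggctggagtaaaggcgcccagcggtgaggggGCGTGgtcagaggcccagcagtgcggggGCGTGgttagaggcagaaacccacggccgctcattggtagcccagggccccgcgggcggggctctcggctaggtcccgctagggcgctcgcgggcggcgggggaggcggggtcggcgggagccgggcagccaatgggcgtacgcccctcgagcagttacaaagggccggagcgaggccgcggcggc
Tgfbr2: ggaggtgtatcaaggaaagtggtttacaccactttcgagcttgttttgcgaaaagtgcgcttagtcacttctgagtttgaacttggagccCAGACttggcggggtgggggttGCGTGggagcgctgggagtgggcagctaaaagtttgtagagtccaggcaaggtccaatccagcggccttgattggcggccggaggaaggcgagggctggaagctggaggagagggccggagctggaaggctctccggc
Smad3: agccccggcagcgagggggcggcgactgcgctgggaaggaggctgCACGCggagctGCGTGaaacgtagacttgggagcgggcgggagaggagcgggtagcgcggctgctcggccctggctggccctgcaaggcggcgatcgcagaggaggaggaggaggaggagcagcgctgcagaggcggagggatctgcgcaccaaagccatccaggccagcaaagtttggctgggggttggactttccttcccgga
GCGTG occurred once before Tgfb1 and Tgfbr2 and 2 times before Tgfbr1 and Smad3, and CAGAC once before Tgfbr2. No marked match overlapped another. Tgfbr1 has a second annotated start, and the window before it (chr4:47385966-47386215) held 0 GCGTG and 1 CAGAC. Of 32851 promoter windows of the same length, 28.2% held GCGTG and 42.2% held CAGAC. The windows of Tgfb1, Tgfbr1, Smad3 and Tgfbr2 were 75.2%, 74.8%, 69.2% and 58.4% G or C, against a median of 52.4% over all windows. GCGTG was also found before Tgfbi, which was not called, and not before Tgfb2. A match is a description of letters, not a binding site or a cause. Windows of Smad7 and Skil are not shown here.

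Smad3 (ENSMUSG00000032402, chr9:63646767-63757994, minus strand), which carries the signal to DNA, was at 6.18, 5.90 and 5.61 FPKM in cKO-labelled TAM, 5.34, 4.38 and 4.78 in control TAM, and 4.10, 4.24, 4.39 and 4.31 in resident macrophages. The cKO-labelled libraries lay above all others, while control TAM replicate 2 fell within the resident range. The difference between cKO-labelled and control TAM was 0.24 ± 0.07 (adjusted p = 0.0169). That call was lost without cKO-labelled TAM replicate 1 (adjusted p = 0.0651), without control TAM replicate 2 (adjusted p = 0.0784) and when every library was rescaled to a common total (adjusted p = 0.0769). Between control TAM and resident macrophages the difference of 0.15 ± 0.07 was not called (adjusted p = 0.0679), and it was called without control TAM replicate 2 (adjusted p = 0.0237) or at a common total (0.32, adjusted p = 0.000740). Between cKO-labelled TAM and resident macrophages it was 0.39 ± 0.07 (adjusted p = 0.000101).

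Smad7 (ENSMUSG00000025880, chr18:75367529-75395935, plus strand), which blocks the type I receptor and is itself switched on by SMAD3, was the lowest of the 8 genes in every group. It was at 1.87, 1.70 and 1.61 FPKM in cKO-labelled TAM, 1.63, 1.29 and 1.57 in control TAM, and 0.503, 0.324, 0.271 and 0.202 in resident macrophages. The TAM groups overlapped, and all of their libraries lay above the resident ones. No resident library reached the filter's FPKM of 1, so Smad7 entered the tests only through its TAM libraries. Its mean in control TAM was 4.62 times that in resident macrophages (0.92 ± 0.09, adjusted p = 1.12e-07), and its mean in cKO-labelled TAM was 5.32 times the resident one. The log2 value depends on the pseudocount at this level, being 1.95 with a pseudocount of 0.1. The difference of 0.13 ± 0.10 between cKO-labelled and control TAM was not called (adjusted p = 0.308). The lowest library held 13 reads of Smad7.

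Skil (ENSMUSG00000027660, chr3:31095058-31122577, plus strand), or SnoN, binds SMAD proteins on DNA and represses their targets, and its own gene is induced by TGF-beta. It was at 6.12, 6.97 and 6.75 FPKM in cKO-labelled TAM, 7.49, 7.17 and 7.47 in control TAM, and 2.75, 2.75, 3.10 and 3.24 in resident macrophages. Both TAM groups lay above every resident library, and cKO-labelled TAM just below control TAM. The difference was 1.08 ± 0.07 between control TAM and resident macrophages (adjusted p = 7.17e-10) and 0.94 ± 0.07 between cKO-labelled TAM and resident macrophages (adjusted p = 4.46e-09). Between cKO-labelled and control TAM it was -0.14 ± 0.07 and not called (adjusted p = 0.152), though it was called at a common total (-0.21, adjusted p = 0.0362).

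The SMAD genes moved in both directions. Of 7 tested SMAD genes, Smad3 and Smad7 included, 2 rose and 3 fell in control TAM against resident macrophages (median -0.18 beside 0.00 over all genes), and 2 rose and 2 fell in cKO-labelled against control TAM (median -0.03 beside 0.01). Leaving out 1 library at a time gave 1 to 4 calls between the TAM groups. Smad2, the partner of SMAD3, averaged 25.7 ± 1.34 FPKM in cKO-labelled TAM, 21.1 ± 1.18 in control TAM and 25.5 ± 1.67 in resident macrophages. Smad4, the shared partner, was at 24.8 ± 1.16, 27.4 ± 1.90 and 34.9 ± 0.953 FPKM. Smad6, the inhibitor of the BMP branch, rose in control TAM against resident macrophages (0.85), as Smad7 did, and was called lower in cKO-labelled than in control TAM (-0.27, adjusted p = 0.0384).

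Of 16 tested SMAD co-repressors and negative regulators, Skil included, 5 rose and 7 fell in control TAM against resident macrophages (median -0.12), and 1 rose and 3 fell in cKO-labelled against control TAM (median -0.05). Pmepa1, a feedback inhibitor induced by TGF-beta, was at 7.44 ± 0.124 FPKM in cKO-labelled TAM, 6.56 ± 0.922 in control TAM and 3.51 ± 0.178 in resident macrophages. Wwp1, a ubiquitin ligase, went the other way in control TAM, and was at 6.57 ± 0.0726, 4.44 ± 0.221 and 28.1 ± 1.48 FPKM. Of 10 tested positive regulators, 2 rose and 5 fell in control TAM against resident macrophages (median -0.19), and 0 rose and 2 fell in cKO-labelled against control TAM (median -0.03). Dab2, an adaptor that links the receptors to SMAD proteins, fell by 1.54 in control TAM against resident macrophages, and Runx3, a SMAD partner in transcription, rose by 1.54.

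Tgfbi (ENSMUSG00000035493, chr13:56609523-56639562, plus strand) was by far the most abundant of the 8 genes. It was at 430, 445 and 432 FPKM in cKO-labelled TAM, 421, 429 and 416 in control TAM, and 430, 432, 430 and 423 in resident macrophages. The cKO-labelled libraries lay just above the control TAM ones, and both groups overlapped the resident libraries. The differences were 0.05 ± 0.03 between cKO-labelled and control TAM (adjusted p = 0.202), -0.02 ± 0.03 between control TAM and resident macrophages (adjusted p = 0.407) and 0.02 ± 0.03 between cKO-labelled TAM and resident macrophages (adjusted p = 0.444). These values depend on the scaling: at a common total, Tgfbi was called higher in control TAM (0.19, adjusted p = 3.07e-06).

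Other genes known to respond to TGF-beta did differ. The list mixes genes that TGF-beta induces with Id1, Id2 and Id3, which it can lower and BMP signals induce, so its counts are not a measure of induction. Of 20 tested response genes, Tgfbi included, 16 rose and 3 fell in control TAM against resident macrophages, with a median of 1.54 beside 0.00 over all genes. Of all genes, 39.0% were called higher and 38.1% lower there. In cKO-labelled against control TAM 2 rose and 9 fell, with a median of -0.11 beside 0.01. The shares over all genes were 20.5% higher and 19.1% lower. At a common total the counts of response genes were 17 and 2, and 1 and 11. Most of these genes also answer to other signals, and 4 of the 21 in the table stand on another list used here, Col1a1 and Col3a1 on that of fibroblasts, Fn1 on that of large peritoneal macrophages and Itgae on that of dendritic cells. Markers of other cells rose in control TAM against resident macrophages as well: 9 of 11 tested of large peritoneal macrophages (median 2.10), 9 of 10 of epithelial and tumour cells (median 3.51) and 4 of 4 of mesothelium (median 1.52). All tested mesothelial markers, and Krt7, Cdh1, Epcam and Sox9 of the epithelial list, were under the filter's FPKM of 1 in every resident library. They entered the tests only through TAM, so their calls as higher were close to fixed in advance. The large peritoneal list, 11 of 11 in the table, summed to 2579 to 2594 FPKM in cKO-labelled TAM, 2752 to 2807 in control TAM and 1021 to 1062 in resident libraries. In TAM the largest part was Alox15, at 1375 FPKM in cKO-labelled and 1389 in control TAM, which the eosinophil sum holds too. The epithelial and tumour list, 10 of 12 in the table, summed to 292 to 306, 294 to 304 and 84.2 to 96.0 FPKM, and the mesothelial list, 5 of 6, to 22.0 to 23.6, 30.6 to 34.7 and 0.963 to 1.46 FPKM, with no marker at 0 throughout a group. In resident libraries most of the epithelial sum was Tff2, at 86.6, 77.4, 76.5 and 73.7 FPKM, against 0 to 2.07 in TAM. That sum therefore understates how far the other epithelial markers differed. The part of these cells in the rise of the response, ligand and latency genes was not tested.

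Tgm2, a transglutaminase that cross-links matrix, averaged 516 ± 6.16 FPKM in cKO-labelled TAM, 538 ± 14.0 in control TAM and 8.90 ± 0.278 in resident macrophages. Rgs1, a regulator of chemokine receptor signalling, was at 13.2 ± 0.612, 22.4 ± 1.39 and 3.16 ± 0.168 FPKM, and fell by 0.71 in cKO-labelled against control TAM. Klf11, a TGF-beta-induced transcription factor, was lowest in cKO-labelled TAM, at 2.65 ± 0.319 FPKM, against 4.95 ± 0.444 in control TAM and 12.2 ± 0.220 in resident macrophages. Id1 and Id2 were among the genes that rose in control TAM against resident macrophages, by 2.86 and 2.15. Id3 was called lower there and at 14.1 ± 1.00, 11.9 ± 0.773 and 28.5 ± 1.20 FPKM. Col1a1, a collagen chain, rose by 0.40 in cKO-labelled against control TAM. Other collagen chains did not rise there: Col1a2 fell by 0.81 (adjusted p = 1.52e-06), and Col3a1 was not called (-0.10). The 9 of 11 fibroblast markers in the table, none at 0 throughout a group, summed to 129 to 132 FPKM in cKO-labelled TAM. Their sum was 166 to 170 in control TAM and 40.4 to 44.4 in resident libraries, and their part in the collagen values was not tested.

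**Figure D3:**
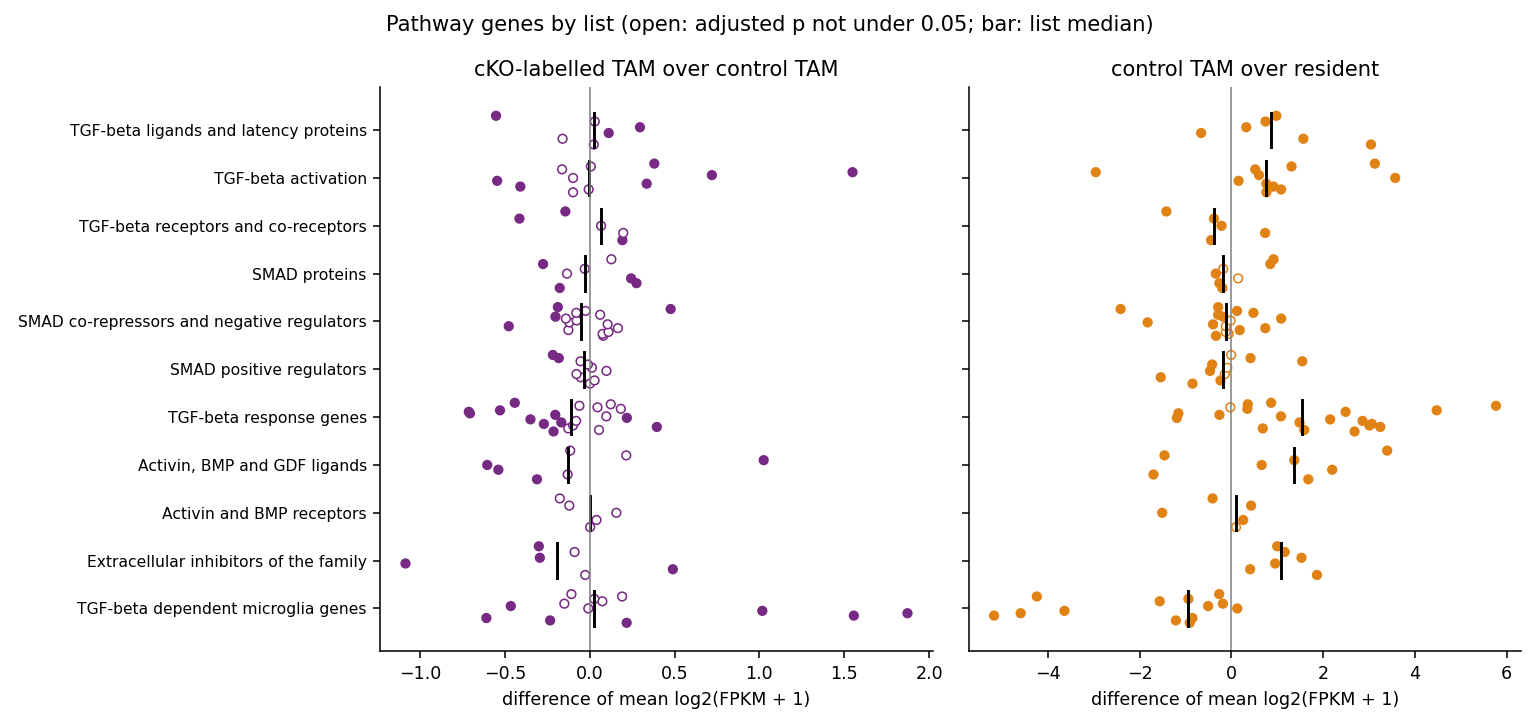
Difference of mean log2(FPKM + 1) for every tested gene of 11 lists of the TGF-beta family, for cKO-labelled over control TAM (left) and control TAM over resident (right, a wider axis), filled where the adjusted p is under 0.05, with the list median as a bar. The response genes have a median of -0.11 on the left and 1.54 on the right, and the microglia list has its median at -0.94 on the right.

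Within each group, the 8 genes kept a similar order of level. In cKO-labelled TAM it was Tgfbi, Tgfb1, Tgfbr2, Skil, Smad3, Tgfbr1, Tgfb2 and Smad7, and the ranges of Skil and Smad3 overlapped. In control TAM Tgfbr1 stood above Smad3, and otherwise the order was that of cKO-labelled TAM. In resident macrophages Tgfbr2 stood above Tgfb1, and Tgfbr1 and Smad3 above Skil. No other neighbours overlapped in their library ranges.

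Ratios of FPKM within a library do not depend on how the libraries were scaled. Tgfbr2 to Tgfb1 was 0.410, 0.411 and 0.422 in cKO-labelled TAM, 0.599, 0.558 and 0.543 in control TAM, and 1.97, 1.82, 2.05 and 1.92 in resident macrophages. In resident macrophages the receptor transcript exceeded the ligand transcript, and in every TAM library it was the lower one. Tgfbr1 to Tgfb1 averaged 0.0709 ± 0.00784 in cKO-labelled TAM, 0.122 ± 0.00354 in control TAM and 0.207 ± 0.0238 in resident macrophages, again with no overlap. Tgfbr2 to Tgfbr1 was 5.89 ± 0.563, 4.65 ± 0.166 and 9.43 ± 0.749, so cKO-labelled TAM lay between the other groups. Smad7 to Smad3 was 0.293 ± 0.00848 in cKO-labelled TAM, 0.310 ± 0.0176 in control TAM and 0.0769 ± 0.0328 in resident macrophages. For these ratios, both TAM groups differed from resident macrophages at the smallest p that the exact two-sided permutation test of 3 against 4 libraries can give, 0.0286 (0.0429 adjusted over 18 tests of 6 ratios). Between the TAM groups the exact permutation test of 3 against 3 libraries cannot go below p = 0.1, which 4 of the 6 ratios reached (0.113 adjusted): the 3 that hold a receptor, and Tgfbi to Tgfb1, at 6.25 ± 0.216 in cKO-labelled TAM and 7.45 ± 0.179 in control TAM. The ratios were chosen after the values were seen.

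**Figure D4:**
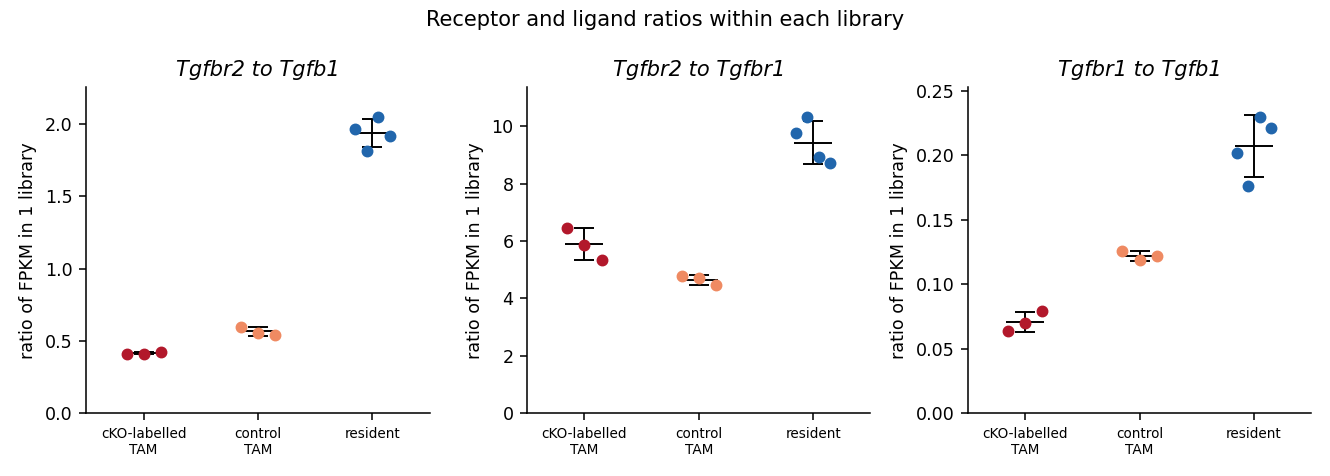
Ratio of FPKM within each library (vertical axes from 0) for Tgfbr2 to Tgfb1, Tgfbr2 to Tgfbr1 and Tgfbr1 to Tgfb1, in cKO-labelled TAM, control TAM and resident libraries, 1 point per library with mean and SD as bars. Tgfbr2 to Tgfb1 is above 1.8 in every resident library and below 0.6 in every TAM library.

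The counts of the wider family are to be read against the background of 77.1% of all genes called between control TAM and resident macrophages and 39.6% between the TAM groups, and nothing particular to the family is drawn from them. Of 7 tested activin, BMP and GDF ligands, 5 rose and 2 fell in control TAM against resident macrophages (median 1.37), and 1 rose and 3 fell in cKO-labelled against control TAM (median -0.13). Inhba, the activin A chain whose receptors also use SMAD2 and SMAD3, averaged 11.2 ± 0.563 FPKM in cKO-labelled TAM, 12.3 ± 0.399 in control TAM and 0.263 ± 0.106 in resident macrophages. Bmp2, a ligand of the BMP branch, was at 2.64 ± 0.341, 2.97 ± 0.0396 and 11.9 ± 1.16 FPKM. Gdf3 was at 39.6 ± 0.199, 19.0 ± 1.91 and 6.73 ± 0.522 FPKM and was the one ligand called higher in cKO-labelled than in control TAM. Of 5 tested activin and BMP receptors and co-receptors, 2 rose and 2 fell in control TAM against resident macrophages, and limma called 0 between the TAM groups (1 had an unadjusted p under 0.05, and 1 was called at a common total). Of 6 tested extracellular inhibitors, 6 rose in control TAM against resident macrophages (median 1.08), and 1 rose and 3 fell in cKO-labelled against control TAM (median -0.19). Decorin (Dcn), a matrix proteoglycan that binds TGF-beta and a fibroblast product, was at 24.4 ± 0.947 FPKM in cKO-labelled TAM, 52.9 ± 0.366 in control TAM and 26.9 ± 1.38 in resident macrophages.

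Genes that mouse microglia need TGF-beta to express were also counted, although the cells here are not microglia. Of 13 tested, 1 rose and 12 fell in control TAM against resident macrophages, with a median of -0.94 beside 0.00 over all genes. Of all genes, 38.1% were called lower there. In cKO-labelled against control TAM 4 rose and 3 fell, with a median of 0.03 beside 0.01, where 20.5% of all genes were called higher and 19.1% lower. Fcrls, an Fc receptor-like protein, averaged 48.0 ± 2.22 FPKM in cKO-labelled TAM, 15.7 ± 0.688 in control TAM and 601 ± 6.44 in resident macrophages. Gas6, a ligand that bridges dying cells to phagocytes, was at 82.5 ± 0.972, 21.8 ± 0.314 and 550 ± 8.66 FPKM. Cx3cr1, the fractalkine receptor, and Mertk, a phagocytic receptor, fell in cKO-labelled against control TAM, by 0.61 and 0.46. Csf1r and Mertk of this list are general macrophage markers.

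**Figure D5:**
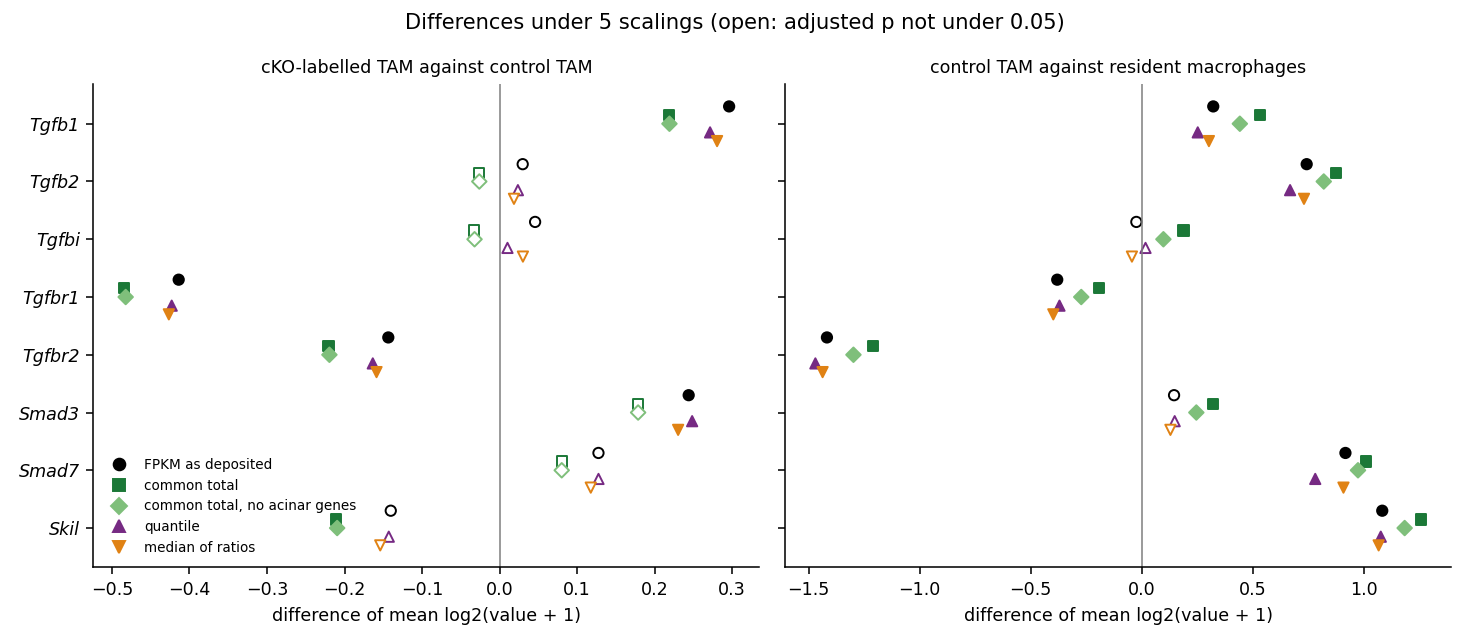
Difference of mean log2(value + 1) for the 8 genes under 5 ways of scaling the libraries, for cKO-labelled TAM against control TAM (left) and control TAM against resident macrophages (right), filled where the adjusted p is under 0.05. Tgfb1, Tgfbr1 and Tgfbr2 stay on their side of 0 and stay called under all 5, and Tgfbi crosses 0 in both panels.

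The scaling of the libraries moved the lower changes. Rescaling to a common total shifted the median gene by 0.18 between control TAM and resident macrophages and by 0.11 between cKO-labelled TAM and resident macrophages. The share of calls that were higher was then 32.9%, against 51.8% with the deposited values, for cKO-labelled against control TAM, 65.9% against 50.6% for control TAM against resident macrophages, and 61.6% against 52.0% for cKO-labelled TAM against resident macrophages. Tgfb1, Tgfbr1 and Tgfbr2 kept their calls and directions in both comparisons under each of the 4 other scalings. Tgfb2 in cKO-labelled against control TAM turned to -0.03 at a common total and was not called under any scaling.

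Likeness of pattern was measured as Pearson's r of log2(FPKM + 1) over the 10 libraries, which share groups and scaling, among 5490 genes. The closest genes to Tgfb1 were Ltb (0.992), a lymphotoxin chain, and Map2k3 (0.992), a kinase. For Tgfbr1 they were Cep120 (0.985) and Neat1 (0.984), and for Tgfbr2 Engase (0.998) and Trf (0.998), or transferrin. For Smad3 they were Top1 (0.975) and Rps19bp1 (0.967). For Smad7 they were Tap2 (0.996), a peptide transporter, and Def6 (0.996), for Skil Ankrd37 (0.998) and Cd200r4 (0.997), and for Tgfb2 Cox6c (0.988) and Snrpd3 (0.987). Tgfbi, which varied least, had the lowest values, with Ift20 (0.943) and Casp8 (0.916).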

How the data were processed

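The authors deposited 1 table of FPKM with 1 column per library for 10 libraries, and all columns were matched to samples by title. Per the labels' protocols, a Norgen single-cell kit or an RNeasy kit was used for RNA, followed by SMART-Seq v4 amplification and Nextera XT, which keep no strand. The submitters' processing notes name STAR, edgeR, mm10 and GRCm38. For gene lengths and library scaling, the method is not given in the sources used here.

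Tests covered the 11127 of 12535 genes that reached an FPKM of 1 in 3 or more libraries. A limma 3.58.1 model (R 4.3.3) of log2(FPKM + 1) over all 10 libraries had 3 group means and a variance trend (7 residual degrees of freedom). Adjustment was by Benjamini-Hochberg over all genes, with a threshold of 0.05. The fit was tested on simulated data. Reads were recovered from the steps between low FPKM values with annotated gene lengths, and 85.9% to 87.3% of values between 1 and 200 reads were whole within 0.05. Over 12 pairs of libraries of 1 group, the squared difference was 1.76 to 2.93 times counting noise, so no pair looked like 1 library entered under 2 names. This does not show that libraries come from separate animals, since separate preparations of 1 sample would also exceed counting noise. Coordinates are from the GENCODE annotation of GRCm38.

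The 8 genes, the gene lists and the tests were chosen with earlier results of these data known. Named beside the 8 genes are, per list and comparison, genes past the threshold with at least 5 FPKM in the higher group and the largest changes. Tgfb3, Bambi, Smad6, Id1, Id2, Adgre1, Csf1r, Ahr and Ddx3y were named in addition, after their values were seen. So were Tgfbr3, Lyz2, Col1a2, Col3a1, S100a8, S100a9, Retnlg, Alox15 and Prg2. Kdr, Plvap, Cd8a, Cd3d, Krt7, Cdh1, Epcam, Sox9 and Tff2 were named in the same way. Alternatives were other pseudocounts, filters and scalings, fits of 2 groups, without trend or with array weights, a replicate block, and leaving out each library.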

Additional observations from a re-analysis of the deposited data

Results flagged for a closer look

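Tgfb2 in resident macrophages was marked because 1 of the 4 libraries stood apart from the others. Replicate 2 was at 0.740 FPKM, against 1.15, 1.20 and 1.12 FPKM in replicates 1, 3 and 4, so that its gap to the nearest library took a share of 0.8291 of the whole range, only just past Dixon's 95% critical value for 4 libraries. That library held 41 reads of Tgfb2. About 1 group in 20 is marked in this way by chance, and 8 groups were looked at. Without resident replicate 2, Tgfb2 was still called higher in control TAM (0.67 on the log2 scale over the resident mean).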

How the results depend on the processing

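Across 22 alternatives for each comparison, the number of genes called and the number of the 8 called stayed within 1.5 times the values given. Leaving out 1 library at a time gave 3496 to 4611 genes called between cKO-labelled and control TAM, 8237 to 8559 between control TAM and resident macrophages and 8182 to 8646 between cKO-labelled TAM and resident macrophages, and 3 to 4, 6 to 7 and 7 of the 8 genes. The difference of Tgfbi between control TAM and resident macrophages turned to 0.19 at a common total and to 0.10 at a common total without acinar genes, against -0.02 as deposited. These rescalings shifted the median gene by 0.18 and 0.10, so Tgfbi moved about as far as the median gene. Why the totals of the libraries differ was not tested. Skil in cKO-labelled against control TAM became called at a common total (-0.21), and Smad3 there was lost. The replicate numbers did not pair the libraries, since same-numbered libraries had correlations of -0.06 to 0.11 over 9 pairs and 2 of 9 libraries correlated best with their own number. With the replicate block, 4342, 8396 and 8437 genes and 4, 6 and 7 of the 8 were called in the same 3 comparisons. Depth limits Smad7 and Tgfb2 most, with as few as 13 and 41 reads in a resident library.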
